A study of Mus musculus with 24 samples.

Results

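The NMDA receptor genes are the 7 mouse genes that encode the subunits of the N-methyl-D-aspartate type of glutamate receptor: Grin1, Grin2a, Grin2b, Grin2c, Grin2d, Grin3a and Grin3b. They were chosen by name, 7 of 21938 protein-coding genes, and every site bound by the transcription factor MYT1L in a gene body or within 5 kb of an annotated transcription start was taken for them. The assay was CUT&RUN on mouse cortex, of strain C57BL/6J by the labels and C57BL/6N by the methods: a nuclease is guided by an antibody to the protein and releases the DNA beside it. The groups were adult (3 months old) Myt1l heterozygotes, called adult HET, and mice with intact Myt1l (WT) shortly before birth (E18.5), on the day of birth (P0) and at 3 months (adult WT), with 3 MYT1L and 3 IgG control libraries each, 24 in all. The heterozygotes carry a germline frameshift mutation in the first coding exon of Myt1l, made by genome editing, in all their cells. The dissected part was cortex at E18.5 and prefrontal cortex at P0 and 3 months by the labels, but prefrontal cortex at all ages by the methods, and sex is given as unknown. E18.5 and P0 libraries belong to sequencing run 1 and both adult groups to run 2, so age and run cannot be told apart between them.

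NMDA receptors are tetramers. Those of GluN1 and GluN2 subunits conduct once glutamate and a co-agonist (glycine or D-serine) are bound and depolarisation has expelled magnesium from the pore. GluN1, from Grin1, is the obligatory subunit and binds the co-agonist. The GluN2 subunits, from Grin2a to Grin2d, bind glutamate and set the kinetics of the channel. In rodent forebrain GluN2B is the main GluN2 subunit before and around birth, and GluN2A is added as synapses mature. MYT1L is a neuronal zinc finger factor that binds the motif AAAGTT and is known for holding down non-neuronal genes. The files hold positions of sites and no RNA levels, so nothing here measures expression of these genes.

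Each group is represented by 1 merged list of sites with no height, score or value per library, so no list has a replicate error and no test between lists could be made. The intervals given are exact 95% intervals that cover counting error only. The lists held 56937 sites in adult HET, 14477 at E18.5, 40698 at P0 and 32145 in adult WT, and their median widths were 108, 593, 276 and 167 bp in the same order. Library depth was unknown. Sites of adult HET were thus the most numerous and the narrowest, which bears on every comparison of counts between adult HET and adult WT below. The labelled tissue could not be checked by expression. All 5 excitatory neuron markers examined had a site within 5 kb of a start at E18.5 and at P0, and 2 of 5 had one in adult HET and in adult WT. Of 4 inhibitory neuron markers, none had one in adult HET, at E18.5 or in adult WT, and 2 did at P0. Astrocyte markers had one for 2 of 4 in adult HET, 0 at E18.5, 2 at P0 and 1 in adult WT, and oligodendrocyte lineage markers for 1, 2, 1 and 1 of 4. Among microglial markers 1 of 3 had such a site, in adult WT alone, and among endothelial markers none of 3 did in any list. Of all protein-coding genes, 23.4% in adult HET, 30.0% at E18.5, 45.9% at P0 and 20.1% in adult WT had such a site. With so few markers per cell type, these counts are no check of the cells in a sample.

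Most sites at NMDA receptor genes lay at 2 genes, Grin2b and Grin2a, and in introns. The 4 lists together placed 81 sites at the 7 genes: 25 in adult HET, 2 at E18.5, 13 at P0 and 41 in adult WT. Of these, 24 of 25, 2 of 2, 11 of 13 and 40 of 41 had their midpoint in an intron, and no midpoint fell in a coding exon. Sequences shared between lists, and examples of sites that held the MYT1L motif, are shown here first, since the results refer to them. All are from mm10, on the minus strand, which is the transcribed direction of these genes, and read 5′ to 3′.

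Only 4 places at these genes were bound in more than 1 list, and all of them were in Grin2a. Capitals mark AAAGTT or its complement AACTTT and the nuclear factor I half-site TTGGCA or its complement TGCCAA. The place shared by E18.5 and P0 lay in intron 11, where chr16:9583905-9584481 at E18.5 and chr16:9583978-9584520 at P0 had 504 bp in common, and a 300 bp stretch of the common part is chr16:9584135-9584434. The places shared by adult HET and adult WT lay in introns 10, 7 and 3, at chr16:9589671-9589740, chr16:9653837-9654018 and chr16:9694145-9694256, and are shown whole.
Grin2a intron 11, E18.5 and P0: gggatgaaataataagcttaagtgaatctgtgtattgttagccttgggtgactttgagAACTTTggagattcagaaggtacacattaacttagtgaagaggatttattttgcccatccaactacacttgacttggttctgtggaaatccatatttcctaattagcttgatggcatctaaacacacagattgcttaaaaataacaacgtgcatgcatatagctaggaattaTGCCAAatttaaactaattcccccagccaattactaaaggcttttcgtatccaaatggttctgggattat
Grin2a intron 10, adult HET and adult WT: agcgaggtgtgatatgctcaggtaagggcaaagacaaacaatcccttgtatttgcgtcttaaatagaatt
Grin2a intron 7, adult HET and adult WT: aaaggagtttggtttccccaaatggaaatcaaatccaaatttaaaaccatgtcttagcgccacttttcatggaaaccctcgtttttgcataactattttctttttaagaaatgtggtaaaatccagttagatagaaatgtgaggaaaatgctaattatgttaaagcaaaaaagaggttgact
Grin2a intron 3, adult HET and adult WT: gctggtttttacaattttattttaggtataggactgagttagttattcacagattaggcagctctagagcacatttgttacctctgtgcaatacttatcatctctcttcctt
The 3 stretches common to both adult genotypes held neither word.

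AAAGTT was found within 7 of 20 adult WT sites of Grin2a and 0 of 12 adult WT sites of Grin2b. To show how the motif sat in sites of each gene, 2 adult WT sites of Grin2a are given, chr16:9972822-9973019 in intron 1, where it overlaps the nuclear factor I half-site, and chr16:9757034-9757333, the part of a 411 bp intron 2 site that holds it 2 times. They are followed by the motif-bearing sites of Grin2b, chr6:135866687-135866792 and chr6:136047666-136047844 in adult HET and chr6:135911959-135912066 and chr6:136052621-136052829 at P0. In the P0 sites the AP-1 site TGACTC or its complement GAGTCA is also in capitals.
Grin2a intron 1, adult WT: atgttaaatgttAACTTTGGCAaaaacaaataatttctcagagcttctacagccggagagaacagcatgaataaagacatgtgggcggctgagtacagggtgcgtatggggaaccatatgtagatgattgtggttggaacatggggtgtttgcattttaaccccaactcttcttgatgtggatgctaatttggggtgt
Grin2a intron 2, adult WT: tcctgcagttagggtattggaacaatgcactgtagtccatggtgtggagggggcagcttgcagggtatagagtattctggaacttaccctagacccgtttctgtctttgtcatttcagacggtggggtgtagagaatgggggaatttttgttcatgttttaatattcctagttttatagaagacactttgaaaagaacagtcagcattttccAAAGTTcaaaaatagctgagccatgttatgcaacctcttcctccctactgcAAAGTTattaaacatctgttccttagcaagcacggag
Grin2b intron 4, adult HET: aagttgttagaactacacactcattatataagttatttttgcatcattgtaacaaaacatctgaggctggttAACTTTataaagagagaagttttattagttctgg
Grin2b intron 2, adult HET: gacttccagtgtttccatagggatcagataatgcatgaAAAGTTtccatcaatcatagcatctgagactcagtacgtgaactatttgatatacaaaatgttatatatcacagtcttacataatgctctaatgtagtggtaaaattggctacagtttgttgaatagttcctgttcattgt
Grin2b intron 4, P0: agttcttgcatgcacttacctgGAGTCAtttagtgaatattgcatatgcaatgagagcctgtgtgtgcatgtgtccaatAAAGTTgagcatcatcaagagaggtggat
Grin2b intron 2, P0: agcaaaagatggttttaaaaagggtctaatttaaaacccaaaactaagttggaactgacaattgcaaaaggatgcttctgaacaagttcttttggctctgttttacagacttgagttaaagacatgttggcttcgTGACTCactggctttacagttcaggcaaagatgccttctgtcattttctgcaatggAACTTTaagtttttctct

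**Figure D1:**
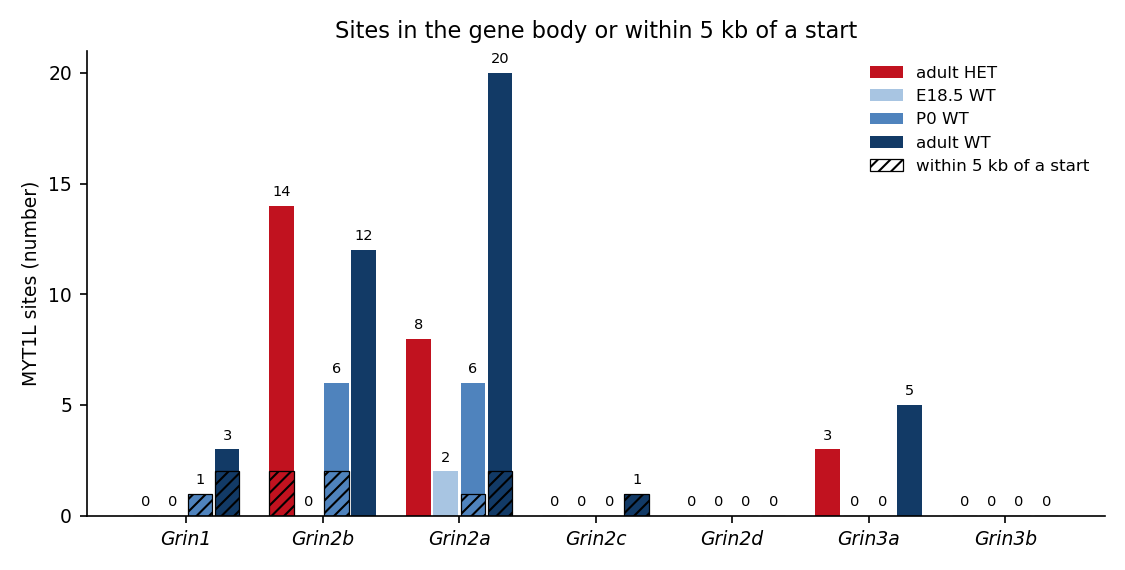
Number of MYT1L sites (vertical axis) in the body or within 5 kb of a start of each NMDA receptor gene (horizontal axis), for adult HET and for WT at E18.5, P0 and adult; the hatched part lies within 5 kb of a start. Grin2b and Grin2a hold most sites in every list that has any, and Grin2d and Grin3b hold 0 in all 4.

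Within 5 kb of a start, the definition of a MYT1L target used in the study, 1 of 7 members had a site in adult HET, against 23.4% of all protein-coding genes. At E18.5 it was 0 of 7 against 30.0%, at P0 3 of 7 against 45.9%, and in adult WT 3 of 7 against 20.1%. The members were Grin2b in adult HET, then Grin1, Grin2b and Grin2a at P0, and Grin1, Grin2a and Grin2c in adult WT. Counting gene bodies too, 3, 1, 3 and 5 of 7 members had a site, in the order adult HET, E18.5, P0 and adult WT, against 44.2%, 36.0%, 53.6% and 35.0% of all genes. With 7 genes these shares are too coarse to be set apart from the background.

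Long genes offer more room for sites, so the 3 members with a body of 100 kb or more (Grin2b, Grin2a and Grin3a) were read against the 2492 protein-coding genes of that length. All 3 had a site in adult HET, where 94.5% of long genes did, and in adult WT, where 85.2% did. At P0 2 of 3 had one against 89.3%, and at E18.5 1 of 3, Grin2a, against 65.2%.

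Per length, the NMDA receptor genes were densely bound in adult WT. Around birth they lay below the rate of all genes, while their intervals held the median density of long genes. Their combined regions held 2.08 sites per 100 kb in adult HET (interval 1.35 to 3.08), where all protein-coding genes held 2.23. At E18.5 the density was 0.167 (0.0202 to 0.602) against 0.993 for all genes. P0 had 1.08 (0.577 to 1.85) against 2.53, and adult WT 3.42 (2.45 to 4.63) against 1.49. Sites spread at the rate of all genes would have numbered 26.8 in adult HET, 11.9 at E18.5, 30.4 at P0 and 17.8 in adult WT, beside the 25, 2, 13 and 41 found. The interval of the members held the value of all genes in adult HET, lay below it at E18.5 and P0, and lay above it in adult WT. Nearly all of the members' length is in long genes, whose median density was 2.06 in adult HET, 0.519 at E18.5, 1.64 at P0 and 1.17 in adult WT. The members' intervals include this median in adult HET, at E18.5 and at P0, and lie above it in adult WT. The median is taken over single genes, unlike the pooled rates of the members and of all genes. A pooled rate of long genes was not computed, so whether the members differ from it cannot be said.

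Between adult WT and P0 the members moved against the genome. They had 41 sites in adult WT and 13 at P0, a ratio of 3.15 (1.66 to 6.41), whereas all genes together had 17722 and 30198, a ratio of 0.587. Among long genes the ratio was 0.775, and 32.1% of them had more sites in adult WT than at P0. Each long member was among those: Grin2b had 12 and 6 sites, Grin2a 20 and 6, and Grin3a 5 and 0. The rise was not particular to NMDA receptor genes among the gene lists described further below. AMPA, kainate and delta receptor genes had 73 sites in adult WT and 59 at P0, and postsynaptic partners 127 and 114. The co-agonist list had 6 and 16, and the list of regulators 50 and 158. Sequencing run changes together with age here, and its part in the result was not tested. Member sites of the 2 lists were of similar width, with medians of 181 bp in adult WT and 183 bp at P0. The medians of all sites were 167 and 276 bp, so member sites at P0 were narrower than their list. Of the member sites, 24 of 41 in adult WT and 9 of 13 at P0 were 150 bp or wider, against 58.8% and 85.2% of all sites. What part width has in the difference was not tested.

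**Figure D2:**
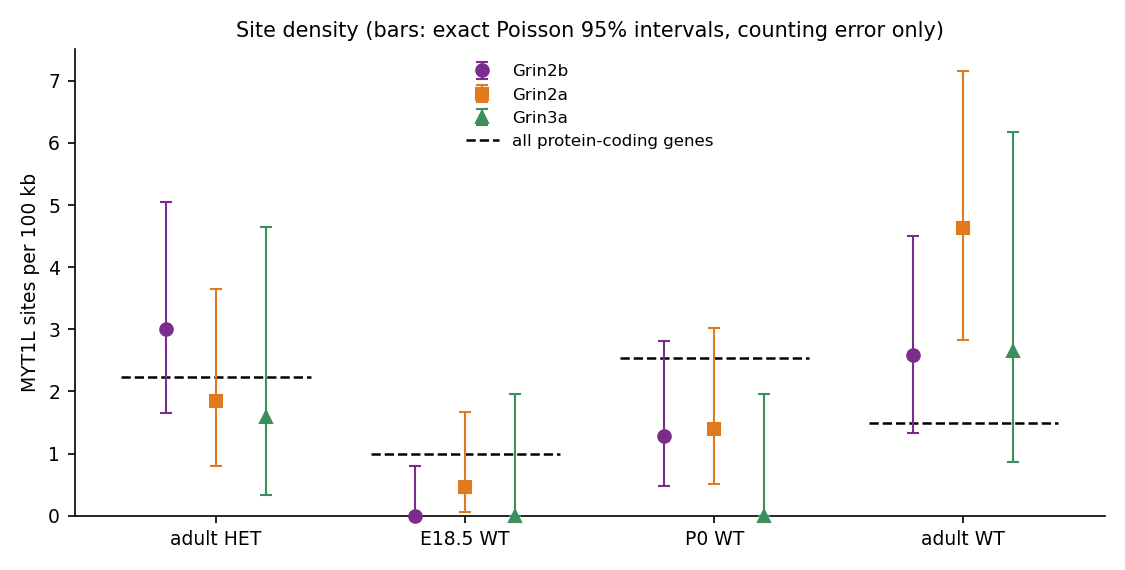
MYT1L sites per 100 kb (vertical axis) at Grin2b, Grin2a and Grin3a in each list (horizontal axis), with exact Poisson 95% intervals and a dashed line for all protein-coding genes. Grin2a in adult WT, at 4.63, is the highest point and its interval lies above the dashed line at 1.49.

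Grin2b and Grin2a, the early and the late subunit gene, are of similar length, 460.3 and 427.7 kb, which allows their sites to be set side by side. Grin2b (chr6:135713233-136173511) had 14 sites in adult HET, 0 at E18.5, 6 at P0 and 12 in adult WT. Grin2a (chr16:9567898-9995560) had 8, 2, 6 and 20 in the same order. The early gene thus had the larger count in adult HET only, and both genes were bound least at E18.5 and equally at P0.

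The differences between the 2 genes stayed within counting error in every list. The ratio of Grin2b to Grin2a in sites per 100 kb was 1.62 in adult HET (0.636 to 4.47) and 0 at E18.5 (up to 4.94). For P0 the ratio was 0.929 (0.248 to 3.47), and for adult WT it was 0.557 (0.248 to 1.2). In bases covered the genes had 1538 and 882 bp in adult HET, 0 and 1109 bp at E18.5, 1865 and 1558 bp at P0, and 2814 and 5186 bp in adult WT, Grin2b first. All 4 intervals of the ratio of site densities include 1, so neither an early nor a late preference for the early subunit gene was detectable with these counts.

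Across ages, Grin2a had 20 sites in adult WT against 6 at P0, a ratio of 3.33 (1.29 to 10.1), and against 2 at E18.5, a ratio of 10 (2.43 to 88.2). From E18.5 to adult WT the ratio was 1.5 over all genes and 2.39 over long genes, the latter close to the lower limit at Grin2a. Grin2b had 12 sites in adult WT against 6 at P0, a ratio of 2 (0.695 to 6.49), an interval that includes 1. Its 0 sites at E18.5 allow a density of up to 0.793 per 100 kb, below the 0.993 of all genes but above the median of 0.519 of long genes. Among the 2492 long genes, 866 others also had 0 sites at E18.5, and Grin2a was denser than 46.8% of the long genes at that age.

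In adult WT the density of Grin2a, 4.63 sites per 100 kb (2.83 to 7.15), was exceeded by 63 of the long genes and was higher than 97.4% of them. Grin2b, at 2.58 (1.33 to 4.51), was higher than 83.5%, and Grin3a, at 2.65 (0.859 to 6.18), higher than 84.9%. The median of long genes was 1.17. At P0 Grin2b was above 39.4% and Grin2a above 42.3% of long genes, near the middle of the ranking, and Grin3a was at 0, as were 265 other long genes.

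Between adult HET and adult WT the largest difference in the number of sites was at Grin2a. It had 8 sites in adult HET and 20 in adult WT, a ratio of 0.4 (0.152 to 0.948), while all genes had 26595 in adult HET and 17722 in adult WT, a ratio of 1.5. Fewer sites in adult HET than in adult WT were found at 22.6% of long genes, and more at 63.5%. Grin2b had 14 and 12 sites, a ratio of 1.17 (0.501 to 2.76), and Grin3a had 3 and 5. At Grin1 there were 0 and 3 and at Grin2c 0 and 1, too few for a ratio to be read. With sites of every width counted, the direction at Grin2a was thus opposite to that of most long genes. In adult HET the gene was denser than 44.5% of long genes at 1.85 sites per 100 kb.

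These adult counts depended on site width. Of the member sites, 3 of 25 (12%) in adult HET and 24 of 41 (58.5%) in adult WT were 150 bp or wider, close to the 15.7% and 58.8% of all sites in those lists. With narrower sites left out, Grin2b had 1 site in adult HET and 8 in adult WT, which turns its direction, and Grin2a had 1 in adult HET and 14 in adult WT. The whole lists turned as well, to 8944 sites in adult HET and 18910 in adult WT. Among these wider sites Grin2a thus went in the same direction as the whole lists. At Grin2a the widths were 70 to 182 bp with a median of 102.5 bp in adult HET, and 63 to 751 bp with a median of 203 bp in adult WT. At Grin2b they were 57 to 179 bp with a median of 106 bp in adult HET, and 115 to 451 bp with a median of 221 bp in adult WT. What part of the difference in counts goes with width was not tested.

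**Figure D3:**
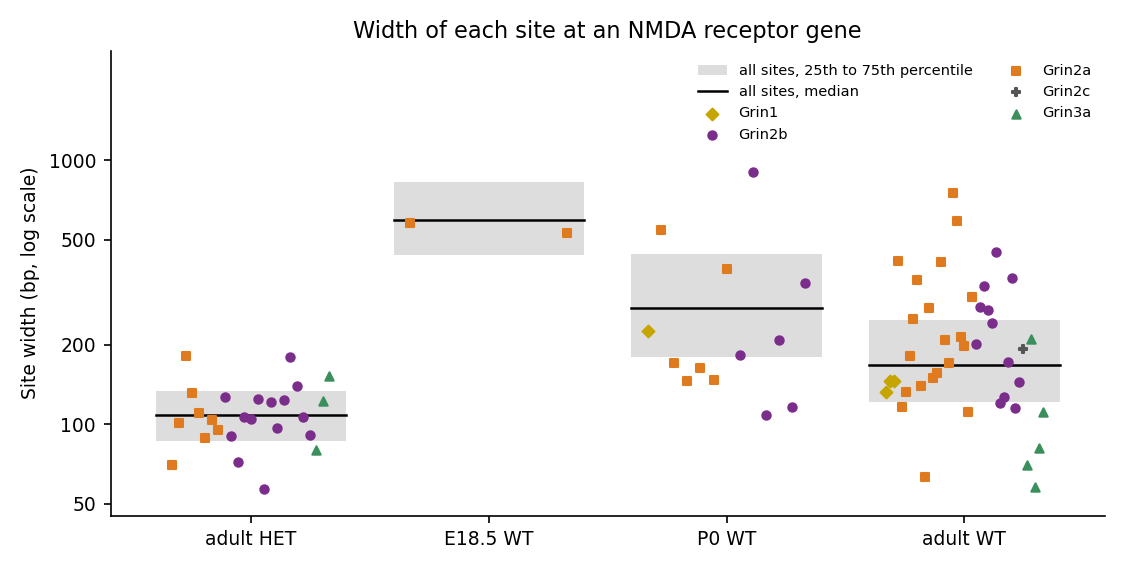
Width in bp (vertical axis, log scale) of every site at an NMDA receptor gene, by list (horizontal axis) and gene (symbol), over the 25th to 75th percentile (grey) and median (line) of all sites of that list. Most sites of adult HET lie near 100 bp and the E18.5 sites are 532 and 577 bp wide, as in their lists.

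None of the 32 sites of Grin2b shared a base with a site of another list. Between adult HET and adult WT overlap was rare among all sites too, since 4.90% of all adult HET sites overlapped adult WT and 8.38% the other way. It was not rare around birth, where 34.8% of all P0 sites overlapped an E18.5 site, against 0 of 6 at Grin2b (up to 45.9%). Intron 4, of 79.7 kb, held the most sites of Grin2b, with 7 in adult HET, 3 at P0 and 4 in adult WT. The sites of adult HET and adult WT that came closest lay there, at chr6:135899039-135899095 and chr6:135899127-135899577, with 31 bp between them. They are shown from the beginning of the wild-type stretch to the end of the heterozygote site in the transcribed direction, with 57 bases of the adult WT site and then the adult HET site in capitals and the bases between them in lower case.
Grin2b intron 4, chr6:135899039-135899183: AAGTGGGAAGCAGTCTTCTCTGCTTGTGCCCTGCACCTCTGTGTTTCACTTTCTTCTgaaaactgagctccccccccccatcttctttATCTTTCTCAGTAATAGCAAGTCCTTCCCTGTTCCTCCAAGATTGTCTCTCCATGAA
The widest site of the gene was at P0, 905 bp in intron 4 at chr6:135907175-135908079, with 22 CpG and none of its bases repeat-masked. In adult WT the 3 widest were chr6:135899127-135899577 (451 bp), chr6:136010831-136011188 (358 bp, intron 3) and chr6:135831187-135831520 (334 bp, intron 5).

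In Grin2a, sites spread over introns 1, 2, 3, 7, 9, 10 and 11 and the region of the starts. Intron 1, of 230 kb, held 3 sites in adult HET, 0 at E18.5, 1 at P0 and 8 in adult WT. Intron 9, of 31.3 kb, held 4 in adult WT and none in the other lists. The 3 widest adult WT sites were chr16:9824723-9825473 (751 bp) and chr16:9882300-9882890 (591 bp) in intron 1 and chr16:9589329-9589742 (414 bp) in intron 10, the last of which contains the stretch shared with adult HET that is printed above. Both E18.5 sites had a P0 site at or beside them. The first was the shared place in intron 11, and the other, chr16:9735623-9736154 in intron 2, lay 173 bp from a P0 site of 146 bp. Of all E18.5 sites, 88.3% overlapped a P0 site.

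Sharing between lists at the members was compared with that of all sites. Of 25 member sites in adult HET, 3 (12%, interval 2.55 to 31.2%) overlapped an adult WT site by at least 1 bp, against the 4.90% of all adult HET sites. In the other direction 3 of 41 adult WT sites (7.32%, 1.54 to 19.9%) overlapped adult HET, against 8.38%. Both intervals include the value of all sites. At Grin2a alone it was 3 of 8 adult HET sites (37.5%, 8.52 to 75.5%) and 3 of 20 adult WT sites (15%, 3.21 to 37.9%), and at Grin2b 0 of 14 (up to 23.2%) and 0 of 12 (up to 26.5%).

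Across ages the members shared 1 place. At P0, 1 of 13 member sites (7.69%, 0.195 to 36.0%) overlapped an E18.5 site, against 34.8% of all P0 sites. None of the 41 adult WT sites (up to 8.60%) overlapped a P0 or an E18.5 site, against 10.4% and 8.86% of all adult WT sites. The upper limits for adult WT lay just below the shares of all sites.

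Around the starts, sites were few and differed between lists in both gene and position. Overlap of P0 with the adult lists was rare among all sites too. Of all P0 sites, 7.99% overlapped an adult WT site and 4.65% an adult HET site. Grin1 (chr2:25291181-25319187), the gene of the obligatory subunit, had 0 sites in adult HET and at E18.5, 1 at P0 and 3 in adult WT. The P0 site, chr2:25319069-25319294, covered all 3 annotated starts and held 32 CpG in 226 bp at 67.7% GC. Its part upstream of the first start, chr2:25319188-25319294, lies in the promoter window of the RefSeq table for GRCm38.p6 and is printed with its 20 CpG in capitals.
Grin1 start, P0: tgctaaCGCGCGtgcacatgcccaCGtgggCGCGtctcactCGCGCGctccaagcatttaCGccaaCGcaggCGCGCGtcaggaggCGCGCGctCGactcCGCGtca
That promoter window, 250 bases before to 50 after the start, had an observed over expected CpG ratio of 1.2, higher than 99.4% of 20150 promoters in the table. The window had 33 CpG and 60.7% GC.

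A match to RE1, the element of the neuronal gene repressor REST, lay near that P0 site. The search used CAGCACC, 2 free bases and GGACAG, both strands, with no overlap with the other words searched. The match was at chr2:25319018-25319032, 36 bp from the site, in the first exon of Grin1.
Grin1 RE1 match: CAGCACCtcGGACAG
Capitals mark the fixed letters. It was the only match within 250 bp of the midpoint of any of the 81 member sites. Among all P0 sites 0.0369% had a match within that distance, and 0.0496% of all promoter windows held one. In adult WT the sites of Grin1 near the start were elsewhere, chr2:25317956-25318101 and chr2:25318180-25318325 in intron 1, each 146 bp wide, and a further one, of 132 bp and wholly repeat-masked, lay in intron 9. The start nearest to the sites at the Grin1 start that is not of Grin1 was that of the lincRNA AA543186, more than 13 kb away.

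Grin2b had sites near its starts in adult HET and at P0 and none in adult WT. At P0, chr6:136173450-136173793, 344 bp wide, reached over the first start, and chr6:136172222-136172337, 116 bp with 12 CpG, lay in intron 1. In adult HET, chr6:136175834-136175924 was 2.37 kb upstream and chr6:136170186-136170291 was 2.89 kb downstream, 91 and 106 bp wide. An antisense gene, Gm26653, starts between them, 560 bp from the midpoint of the P0 site over the start, so these sites cannot be given to either gene alone. Neither adult HET site overlapped the P0 sites, and the gaps were 2040 and 1930 bp. Of all adult HET sites, 3.42% overlapped a P0 site.

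Grin2a had 0 sites near its starts in adult HET and at E18.5, 1 at P0 and 2 in adult WT. The P0 site, chr16:9993625-9994012, lay between annotated starts and held 24 CpG in 388 bp at 60.8% GC. In adult WT the sites were chr16:9991421-9991723, 303 bp at 47.2% GC, and chr16:9987921-9988031, 111 bp at 27.0% GC. They were 0.961 and 4.56 kb downstream of the nearest start, and the nearest other gene start, of the pseudogene Gm7572, was over 50 kb away. At Grin1, Grin2b and Grin2a alike, P0 had a site with 10 to 32 CpG at or within 1 kb of a start. Adult WT also had a site within 1 kb of a start at Grin1 and Grin2a, in intron 1, and its sites near these starts held 0 to 8 CpG.

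Grin2c (chr11:115249169-115267243), which in the adult brain is best known from cerebellar granule cells, had 1 site, in adult WT. It was chr11:115270692-115270883, 192 bp wide and 3.54 kb upstream of the start. The next start is that of Fdxr, the gene of a mitochondrial ferredoxin reductase, 6263 bp from its midpoint. In the 3 other lists the nearest site to a Grin2c start was 18 kb away in adult HET, 9.47 kb at E18.5 and 19.6 kb at P0.

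**Figure D4:**
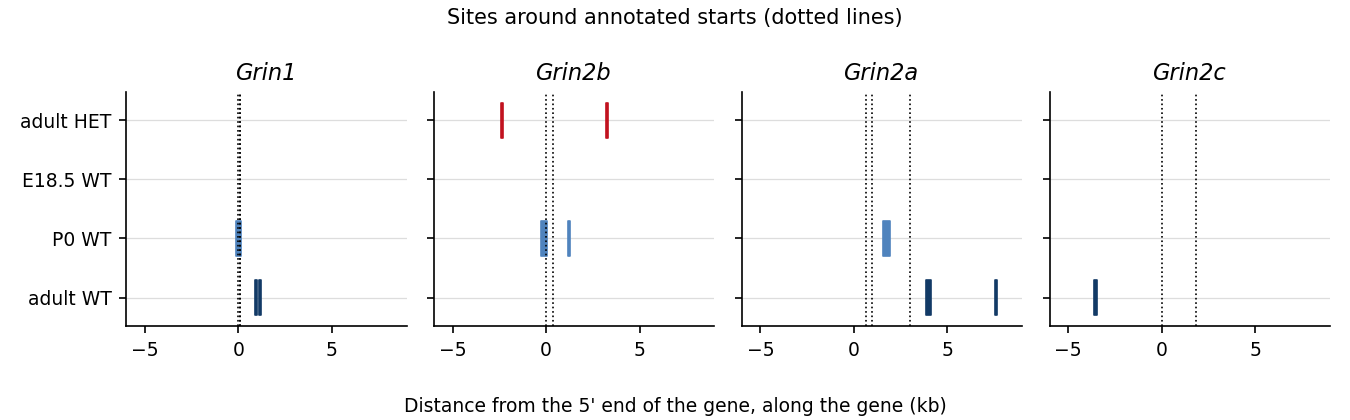
MYT1L sites around the starts of Grin1, Grin2b, Grin2a and Grin2c, drawn to scale in kb from the 5′ end of the gene (horizontal axis) with 1 row per list; dotted lines are annotated starts. P0 sites sit at or between starts at Grin1, Grin2b and Grin2a, and adult WT sites lie downstream at Grin1 and Grin2a and upstream at Grin2c.

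Grin3a (chr4:49661611-49845744), whose product makes receptors of low calcium permeability and is most abundant in juvenile rodent brain, had 3 sites in adult HET, 0 at E18.5, 0 at P0 and 5 in adult WT. All were intronic and none was within 5 kb of the start. The adult HET sites were 80, 122 and 152 bp wide and the adult WT sites 58 to 211 bp. No base was shared between the lists, which says little for so few sites given the shares of all sites above, and the closest sites of adult HET and adult WT were 5799 bp apart. The 0 at P0 allows up to 1.95 sites per 100 kb, below the 2.53 of all genes but above the long-gene median of 1.64.

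Grin2d (chr7:45831883-45878378), an early subunit gene of diencephalon, brainstem and interneurons, and Grin3b (chr10:79970715-79977190), best known from motor neurons, had 0 sites in each of the 4 lists. For Grin2d this allows up to 7.93 sites per 100 kb, and for the short Grin3b up to 32.1, so both bounds lie above the rate of all genes. Outside the 5 kb limit, the site nearest to a Grin2d start was 53.3 kb away in adult HET and 26.3, 26.3 and 26.5 kb away at E18.5, P0 and adult WT, at the start of Tmem143 in the 3 WT lists. For Grin3b it was 25.6 kb away in adult HET, 10.4 kb at E18.5, 10.5 kb at P0 and 14.1 kb in adult WT. The sites at E18.5 and P0 were at the start of Wdr18.

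The promoter windows of Grin2c, Grin2d and Grin3b had CpG ratios of 0.629, 0.848 and 0.172, beside quartiles of 0.240, 0.588 and 0.833 over all promoters. The window of Grin2d was the only one of the 4 members listed there that held AAAGTT, a word held by 12.8% of all promoters. GGGCGG, the GC box, was in the windows of Grin1 and Grin2c and in 47.8% of all promoters. Grin2a, Grin2b and Grin3a were not matched.

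The MYT1L motif was about as frequent in member sites as in all sites of the adult HET, P0 and adult WT lists. AAAGTT or its complement was in 2 of 25 sites in adult HET (8%) against 11.3% of all sites. It was in 1 of 2 at E18.5 against 44.3%, in 4 of 13 at P0 (30.8%) against 27.4%, and in 7 of 41 in adult WT (17.1%) against 17.5%. All 7 in adult WT belonged to Grin2a, 7 of 20 (35.0%, 15.4 to 59.2%), where Grin2b had 0 of 12 (up to 26.5%). These intervals overlap, and the 0 depended on the window. Within 75 bp of the midpoint the word was at 1 of 12 adult WT sites of Grin2b (8.33%) and 4 of 20 of Grin2a (20%), and within 250 bp at 3 of 12 (25%) and 9 of 20 (45%).

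The nuclear factor I half-site TTGGCA was in 1 of 25 member sites in adult HET (4%) against 6.06% of all sites, in 1 of 2 at E18.5 against 37.8%, in 5 of 13 at P0 (38.5%) against 22.1%, and in 8 of 41 in adult WT (19.5%) against 12.8%. AP-1 (TGACTC) was in 2, 1, 3 and 6 sites in the same order, against 6.12%, 26.8%, 14.5% and 12.8% of all sites. The E-box CAGATG was in 4, 1, 2 and 10, against 8.36%, 39.8%, 23.5% and 18.4%. The CRE word TGACGT was in 0, 0, 1 and 1, against 0.873%, 13.6%, 6.55% and 2.23%. GGGCGG was in 0, 0, 2 and 3, against 1.48%, 35.3%, 19% and 5.96%. No site held RE1 within its own borders. All words were searched on both strands, and AAAGTT and TTGGCA can share bases, as in the intron 1 site of Grin2a printed above.

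Base composition of member sites was near that of their lists. Median GC was 41.3% in adult HET, 41.7% at E18.5, 46.9% at P0 and 42.8% in adult WT, against 37.9%, 45.4%, 44.3% and 40.9% of all sites. Sites that were at least 50% repeat-masked made up 2 of 25, 0 of 2, 0 of 13 and 5 of 41 member sites, against 28.0%, 0.884%, 4.52% and 15.9% of all sites.

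Genes whose 4 counts were most like those of Grin2b and of Grin2a were found among long genes, by Euclidean distance of log2(count + 1) over the 4 lists. For Grin2b they were Fam19a1 (distance 0.261), Car10 (0.539), Klhl29 (0.66), Frmpd4 (0.669) and Ryr2 (0.674), all with 0 sites at E18.5. For Grin2a they included Mast4 (0.439), Zranb3 (0.837), Arpp21 (0.871) and Luzp2 (0.886). Mast4 had 11, 2, 6 and 18 sites, in the order adult HET, E18.5, P0 and adult WT, beside 8, 2, 6 and 20 at Grin2a. Fam19a1 had 13, 0, 6 and 10 beside 14, 0, 6 and 12 at Grin2b.

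The gene lists that follow were read in the same way, each beside the background shares of all protein-coding genes given above. Within 5 kb of a start those shares were 23.4% in adult HET, 30.0% at E18.5, 45.9% at P0 and 20.1% in adult WT. Of 11 AMPA, kainate and delta receptor genes, 3 (27.3%) had a site within 5 kb of a start in adult HET, 3 at E18.5, 6 (54.5%) at P0 and 6 in adult WT. Their densities were 2.30, 0.329, 1.14 and 1.41 sites per 100 kb, beside 2.08, 0.167, 1.08 and 3.42 for the NMDA receptor genes. Gria1, of an AMPA receptor subunit, had the most bases in adult WT sites and resembled Grin3a in its course, with 10, 0, 0 and 13 sites. Gria4, of another AMPA receptor subunit, had 12, 2, 10 and 6.

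Postsynaptic partners of the receptor, the scaffold and signalling proteins that bind its cytoplasmic tails, had a site within 5 kb of a start at 8 of 20 genes in adult HET, 6 at E18.5, 15 (75%) at P0 and 11 (55.0%) in adult WT. Densities of this list were 2.81, 0.683, 2.05 and 2.28 sites per 100 kb in the same order. Dlg2, the gene of the scaffold PSD-93, had 64, 15, 37 and 40 sites, and Dlgap1, of a protein that links such scaffolds to SHANK proteins, had 31, 4, 13 and 33. The paralogs Dlgap2 and Dlgap4 had 14, 3, 10 and 9, and 6, 1, 4 and 6.

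The next list held enzymes and transporters of the co-agonists glycine and D-serine and of related amino acids such as D-aspartate. Of its 14 genes, 2 had a site within 5 kb of a start in adult HET, 5 at E18.5, 8 (57.1%) at P0 and 3 in adult WT. Ddo, of D-aspartate oxidase, had 4, 0, 0 and 3 sites, and Srr, of the serine racemase that makes D-serine, had 0, 0, 2 and 1. Slc1a4, of a neutral amino acid transporter that carries serine, and Psph, of a serine synthesis enzyme, had 1 site in each list.

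The list of regulators linked to expression of receptor subunits was bound at 6 of 12 genes in adult HET, 11 (91.7%) at E18.5, 11 at P0 and 5 in adult WT within 5 kb of a start. Its densities were 2.47, 3.29, 8.66 and 2.74 sites per 100 kb. The highest value was at P0, as for all genes, and medians over the list were 1.62, 2.73, 4.53 and 2.36. Whether this course differs from that of the NMDA receptor genes was not tested. Mef2c, of an activity-dependent factor, had 11, 6, 23 and 17 sites. Nfib and Nfia, of nuclear factor I, had 10, 25, 60 and 10, and 8, 17, 50 and 8, and Cask, of a scaffold that acts with the factor TBR1, had 8, 1, 4 and 7.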

How the data were processed

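CUT&RUN with an antibody to MYT1L or control IgG was carried out on dissociated cortical cells, and reads were processed by the authors with the nf-core/cutandrun pipeline on mm10. Aligner, peak caller, threshold and IgG use were not given in the sources used here. For every MYT1L group the authors deposited 1 merged list of site positions (chromosome, start and end, no other value). Adult libraries titled Myt2l or Myt3l were counted with MYT1L, as their descriptions point to that list. The methods count cells by animal and divide each suspension between both antibodies, so MYT1L and IgG libraries share animals, but the labels name no pairs. The 12 IgG libraries are not analysed here.

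Gene models were those of the basic GENCODE M21 annotation and sequence that of GRCm38.p6. Sites were counted with 1 shared base and positions start at 1. Poisson and Clopper-Pearson intervals used SciPy 1.17.1 (Python 3.11.15). Counting was tested on simulated sites. Members, gene lists and named-gene rules were chosen with earlier results of these data known. All 7 members are named, long series of sites by their widest 3, similar genes by the 5 smallest distances, and other lists by at most 4 genes with most bases in adult WT sites. Some genes that these rules select are not reported here.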

Additional observations from a re-analysis of the deposited data

How the results depend on the processing

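Of 172 values recomputed under other settings, 158 stayed within 1.5 times the reported count or within the interval of the reported share. With 1 kb around starts, 0 members had a site in adult HET, and with 10 kb 1 member, Grin2c, had one at E18.5. With sites of 150 bp or wider, adult HET had 0 members with a site near a start, 3 sites in all, 1 at Grin2b and 1 at Grin2a, adult WT had 24 sites in all, and 33.3% (1 of 3) of adult HET member sites overlapped adult WT. The comprehensive GENCODE annotation, added after the data were seen, gave 2 members in adult HET (Grin2a and Grin2b). With gaps of up to 500 bp allowed, 100% of the 2 E18.5 sites met a P0 site. AAAGTT within 75 bp of the midpoint was in 0 sites at E18.5 and 2 at P0, and within 250 bp in 9 in adult HET and 15 in adult WT. Curated RefSeq starts, midpoint placement, leaving out sites at least 50% repeat-masked, joining sites within 1 kb and an overlap of at least 50% of both sites moved no value that far. For the shares this says little, because their intervals are wide. With an overlap of at least 50% of both sites, 1 of 25 adult HET member sites met adult WT instead of 3. Of 41 adult WT member sites, 1 met adult HET instead of 3. No paired analysis was possible because each group has 1 merged list, and no library could be left out for the same reason. Depth is unknown, and with 7 genes small differences between lists were not detectable.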

Other observations

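Outside the 5 kb limit, a site upstream of Grin2b was present at E18.5 and in adult WT. It was singled out after its values were seen. At E18.5 it was chr6:136194297-136195006, 710 bp wide and 20.8 kb from the start, and in adult WT chr6:136194524-136195091, 568 bp wide and 21 kb from it. The nearest annotated start to both was that of Grin2b. The list of adult HET and that of P0 had no site overlapping it, and adult HET had a site of 126 bp further upstream, at chr6:136208032-136208157. Of all E18.5 sites, 88.3% overlapped a P0 site, 18.4% an adult WT site and 10.2% an adult HET site. The upstream site at E18.5 was the one nearest to Grin2b in that list, in which Grin2b had 0 sites by the rule of gene body and 5 kb. Upstream of Grin3a, adult WT had a site of 138 bp 11.3 kb from the start, at chr4:49856815-49856952, and no other list overlapped it. Of all adult WT sites, 8.38% overlapped adult HET, 8.86% E18.5 and 10.4% P0.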
